A study of Mus musculus with 12 samples.

Results

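The Hedgehog pathway genes examined here were 8 named members: the ligand gene Ihh, the ligand-binding protein gene Hhip, the receptor gene Ptch1, the signal transducer gene Smo, the inhibitor gene Sufu and the transcription factor genes Gli1, Gli2 and Gli3. They were taken by symbol from a table of raw read counts for 55401 genes, and all 8 were found. The members were selected on the basis of earlier results from these same libraries, so their differences between groups are given below as a description, with fold changes and errors and no test. Of the 8 members, 5 passed the filter on low counts (Gli2, Ptch1, Smo, Sufu and Hhip), and Gli2 passed it only through its counts in iTgMir483 livers. Gli1, Gli3 and Ihh did not pass it, and their fold changes come from a fit without that filter.

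RNA-seq was performed on whole liver from 12 female mice aged 15 weeks, 6 iTgMir483 and 6 controls. The iTgMir483 mice carry an inducible Tet-off transgene at the Rosa26 locus that holds a copy of the microRNA gene Mir483 under a tetracycline-responsive promoter, together with the transactivator tTA that drives it, so that Mir483 is transcribed unless doxycycline is given. The selection cassette of the transgene was deleted by CMV-Cre, which acts in all tissues, so expression was not restricted to hepatocytes or to any other liver cell. The sample descriptions place all 12 mice in a CMVxmiR cross, and the controls are littermates on the same C57BL/6J background. In the study's postnatal experiments pregnant females received doxycycline until birth, so controls and transgenic pups alike were exposed before birth, and Mir483 was then expressed into adulthood. The descriptions give each library an animal number of its own, so p-values are read as measuring the spread between mice.

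Hedgehog ligands bind Patched at the cell surface and thereby release Smoothened from inhibition. Smoothened then moves into the primary cilium, where it relieves the restraint that Sufu places on the Gli transcription factors. Gli2 is the main activator at the start of signalling, Gli3 is mostly processed to a repressor, and Gli1 is an activator whose own transcription is raised by the signal. Ptch1 and Hhip are also transcribed in response to it and limit it. In adult liver the pathway is best known for its part in the response of bile duct cells, stellate cells and myofibroblasts to injury, and it has also been linked to lipid metabolism in hepatocytes.

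The sequences of the over-expressed microRNA are shown first, because the transcripts of the members were searched for matches to them. Both mature arms were taken from RefSeq (GRCm38.p6, chromosome 7, minus strand, 142654932 to 142654952 for the 3p arm and 142654968 to 142654989 for the 5p arm), and the capitals mark the seed, bases 2 to 8.
mmu-miR-483-3p: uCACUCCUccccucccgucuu
mmu-miR-483-5p: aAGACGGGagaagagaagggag
The seeds differ, so each arm was searched separately, as AGGAGTG for the 3p arm and CCCGTCT for the 5p arm. The longest annotated 3′ untranslated regions (UTRs) of the 8 members comprised 19462 bases, from 165 bases in Gli1 to 6480 bases in Hhip. They held 0 matches to either arm. Among 20979 mouse genes with such a region, 10.6% held at least 1 match to the 3p arm and 2.66% to the 5p arm. The shorter match to bases 2 to 7 (GGAGTG or CCGTCT) was also present 0 times in the members, against 26.6% and 9.38% of all genes. These counts describe the letters of the annotated UTRs only, and coding sequences were not searched.

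Control libraries held 12244123 to 30431286 counts in total, and iTgMir483 libraries 12415140 to 15846175. Mir483 had 0 counts in each control library and 373, 761, 442, 318, 697 and 618 counts in iTgMir483 replicates 1 to 6, so each library matched its label. The poly(A) protocol reads the primary transcript and not the mature arms. Levels below are CPM, the counts scaled to a common total of 1000000 after TMM normalization (which sets library sizes by the typical ratio between libraries), as mean ± SD with n = 6 livers per group, and fold changes are on the log2 scale with their standard error (SE). Over all 13205 genes tested with edgeR's quasi-likelihood test, 11.1% were changed at an adjusted p under 0.05 and a fold over 1.5. Of all genes tested, 8.41% were higher and 2.73% were lower in iTgMir483 livers, and for 5.09% every iTgMir483 library lay above every control library.

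As a description, 2 of the 5 members in the fit, Gli2 and Smo, were past both thresholds and higher in iTgMir483 livers, and 0 were lower. Both were also the members whose libraries did not overlap between groups. Because the same comparison guided the choice of members, nothing is read from these counts against the shares over all genes. In bulk liver, more RNA per cell and more cells of an expressing type cannot be told apart.

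**Figure D1:**
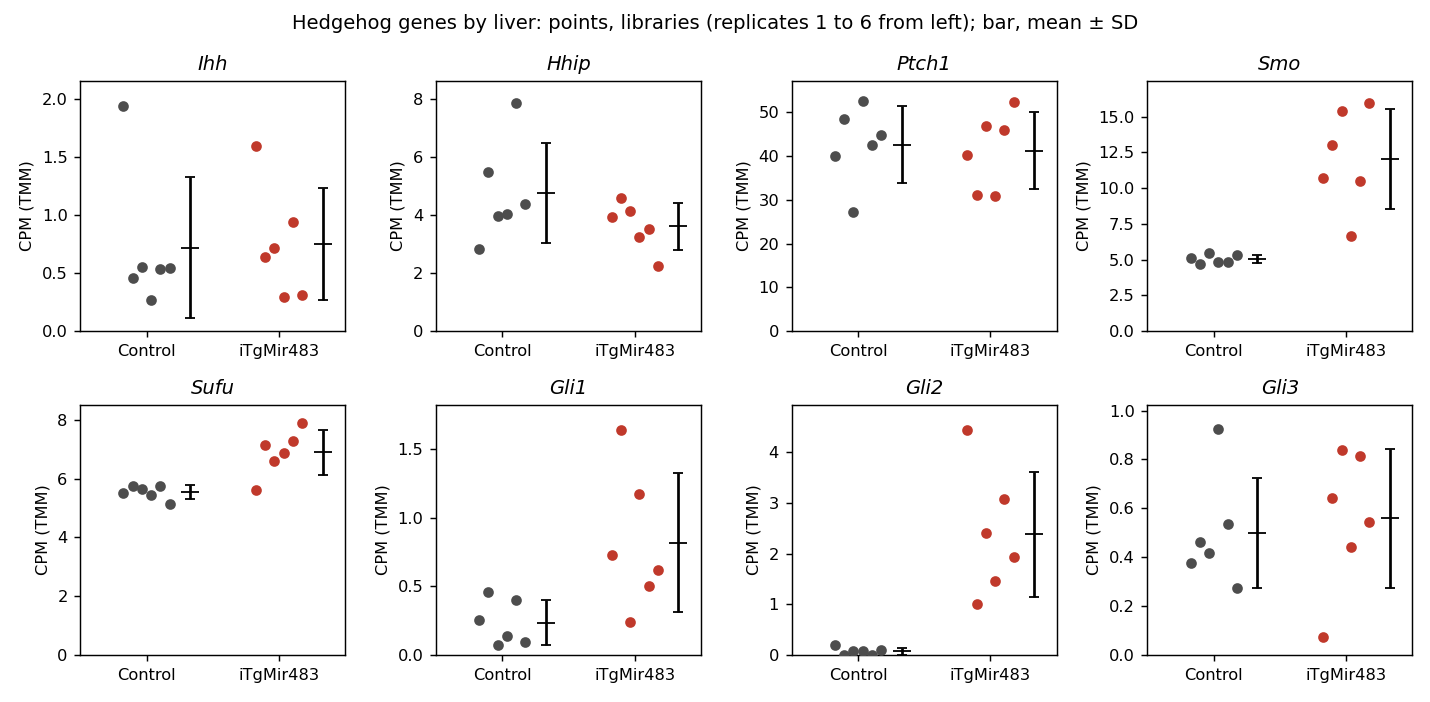
CPM (linear axes from 0) of the 8 Hedgehog genes in each liver, with 6 control and 6 iTgMir483 livers per panel in order of replicate number; bars give mean ± SD. All iTgMir483 points lie above all control points for Smo and Gli2, whereas the groups overlap for the other 6 genes, and the highest Ihh value of each group, 1.95 and 1.60 CPM, is in its replicate 1.

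Ihh (Indian hedgehog, ENSMUSG00000006538; GRCm38 chromosome 1, 74945315 to 74951672, minus strand) was scarcely detected. Control replicates 1 to 6 had 31, 8, 8, 8, 8 and 6 counts, and iTgMir483 replicates 1 to 6 had 22, 9, 12, 4, 15 and 4. Replicate 1 was the highest library of each group, and the groups overlapped with or without it. Ihh amounted to 0.720 ± 0.609 CPM in controls and 0.751 ± 0.485 CPM in iTgMir483 livers, a log2 fold change of 0.07 (SE 0.48). Its sign rested on single libraries, with 0.68 without control replicate 1, -0.29 without iTgMir483 replicate 1, and 0.33 without both. No difference in Ihh was detectable at this depth.

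Of the other ligands, Shh (Sonic hedgehog) had 0 to 6 counts in controls and 1 to 4 in iTgMir483 livers. Dhh (Desert hedgehog) had 0 to 4 counts in controls, with 0.124 ± 0.0805 CPM, and 4 to 8 counts in iTgMir483 livers, with 0.392 ± 0.0866 CPM. Dhh was therefore higher in CPM in all 6 iTgMir483 livers than in any control, but neither gene passed the filter on low counts, so neither was tested in the main comparison. For Dhh the fit without a filter gave a log2 fold change of 1.55 (SE 0.49), which did not meet the thresholds, whereas DESeq2 called it higher.

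Hhip (Hedgehog-interacting protein, ENSMUSG00000064325; chromosome 8, 79965851 to 80058006, minus strand) sequesters ligand at the cell surface. Control livers had 2.82 to 7.84 CPM of it, with a median of 4.21, and iTgMir483 livers 2.24 to 4.57 CPM, with a median of 3.72. The groups overlapped, and the lowest iTgMir483 library was below every control while the highest control was above every iTgMir483 library. The log2 fold change was -0.39 (SE 0.23), and Hhip did not meet the thresholds.

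Ptch1 (Patched 1, ENSMUSG00000021466; chromosome 13, 63508328 to 63573598, minus strand) was the most abundant member in counts, with 391 to 1538 per control library and 422 to 779 per iTgMir483 library. In CPM the controls spanned 27.3 to 52.6, with a median of 43.6, and the iTgMir483 livers 30.9 to 52.3, with a median of 43.0. The ranges were almost superimposed, and the log2 fold change was -0.05 (SE 0.16). Thus neither of the feedback inhibitors that the pathway itself induces, Ptch1 and Hhip, met the thresholds in either direction.

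Smo (Smoothened, ENSMUSG00000001761; chromosome 6, 29735503 to 29761365, plus strand) encodes the transmembrane protein that carries the signal from Patched to the cilium. Control replicates 1 to 6 had 5.15, 4.72, 5.44, 4.86, 4.82 and 5.30 CPM. The iTgMir483 replicates 1 to 6 had 10.7, 13.0, 15.4, 6.67, 10.5 and 15.9 CPM. The control livers lay within a narrow band and every iTgMir483 liver was above it, replicate 4 by the smallest margin. The means were 5.05 ± 0.291 and 12.0 ± 3.48 CPM, a log2 fold change of 1.26 (SE 0.18). Leaving out any single library, or using any other scaling, filter or tool tried, gave values between 1.16 and 1.38.

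Sufu (suppressor of fused, ENSMUSG00000025231; chromosome 19, 46396896 to 46488804, plus strand) holds Gli proteins in the cytoplasm and promotes their processing. Controls spanned 5.12 to 5.76 CPM, with a median of 5.58, and iTgMir483 livers 5.61 to 7.89 CPM, with a median of 7.01. In 5 of 6 iTgMir483 livers Sufu was above every control, and replicate 1 alone lay within the control range. The log2 fold change of 0.32 (SE 0.11) was under the fold threshold.

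In control livers the Gli factors were the members with the fewest counts. Gli2 (ENSMUSG00000048402; chromosome 1, 118834132 to 119053619, minus strand) had 3, 0, 1, 2, 0 and 1 counts in control replicates 1 to 6. The iTgMir483 replicates 1 to 6 had 61, 14, 40, 20, 49 and 25 counts. Each control library was thus at or under the floor of 3 counts, while the lowest iTgMir483 library stood at 14. In CPM the controls had 0.0696 ± 0.0696 and the iTgMir483 livers 2.39 ± 1.24. Over all libraries 209 counts in iTgMir483 livers faced 7 in controls, a ratio of 35.3 per scaled library size with a 95% interval of 16.8 to 88.9 that covers counting error only. Set against the mean CPM that 3 counts amount to in a control library, 0.191, the iTgMir483 mean was 12.5 times higher. The fitted log2 fold change was 4.98 (SE 0.54), which depends on the small count added by the fit where controls are near 0.

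Gli1 (ENSMUSG00000025407; chromosome 10, 127329882 to 127341974, minus strand) is the classical readout of the pathway. Control replicates 1 to 6 had 4, 8, 1, 4, 6 and 1 counts, and iTgMir483 replicates 1 to 6 had 10, 23, 4, 16, 8 and 8. In CPM, 5 of 6 iTgMir483 livers lay above every control, and replicate 3 lay within the control range. The means were 0.235 ± 0.165 and 0.817 ± 0.507 CPM, and the log2 fold change in the fit without a filter was 1.72 (SE 0.51). The ratio of the 69 counts in iTgMir483 livers to the 24 in controls was 3.40 per scaled library size, with a 95% counting interval of 2.11 to 5.66. The value was lowest, at 1.39, without iTgMir483 replicate 2. It shares 1.24% of its exon bases with Arhgap9 and 5.31% with Gm47200, both on the opposite strand, and the strand column used for counting is not stated.

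Gli3 (ENSMUSG00000021318; chromosome 13, 15463235 to 15730026, plus strand) had 6, 8, 6, 27, 8 and 3 counts in control replicates 1 to 6. The iTgMir483 replicates 1 to 6 had 1, 9, 14, 6, 13 and 7. The means of 0.498 ± 0.226 and 0.559 ± 0.284 CPM differed by a log2 fold change of 0.09 (SE 0.44) in the fit without a filter, and the groups overlapped. The ratio of counts was 1.02 with a 95% counting interval of 0.684 to 1.51.

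The 3 Gli genes therefore differed in make-up between the groups. After division by exon length, Gli2 accounted for 0% to 23.4% of the summed Gli level in control livers, which rested on 5 to 33 Gli counts per library. In iTgMir483 livers its share was 26.9% to 80.8%, on 40 to 72 counts, and the shares of Gli2 did not overlap between the groups. Gli3 made up 33.6% to 72.1% of the summed level in controls and 0.949% to 18.1% in iTgMir483 livers. Gli1 held 20.5% to 65.8% in controls and 9.91% to 60.7% in iTgMir483 livers. Because shares add up to a fixed total and the Gli3 level itself overlapped between groups, a lower Gli3 share is no lower Gli3 level.

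**Figure D2:**
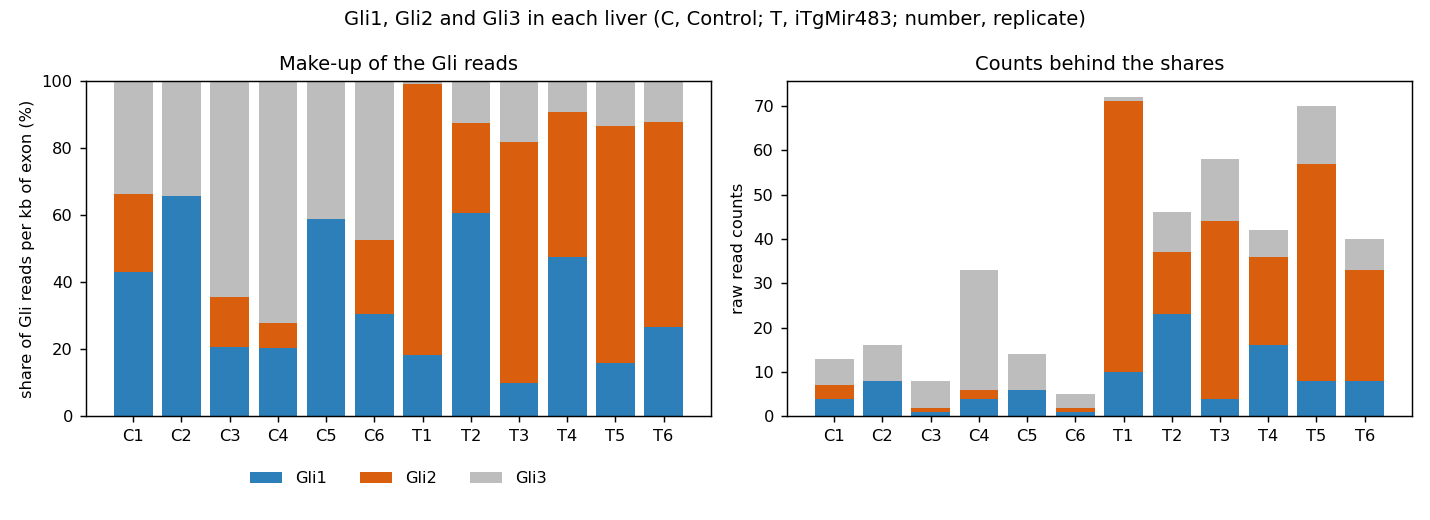
Left, the share (%) of Gli1, Gli2 and Gli3 in their summed level per kb of exon in each control (C1 to C6) and iTgMir483 (T1 to T6) liver; right, the raw read counts behind each bar. Gli2 takes at most 23.4% in a control and at least 26.9% in an iTgMir483 liver, and the control bars rest on as few as 5 counts.

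The livers with the most Gli2 were not those with the most Gli1. Among iTgMir483 livers, replicate 1 had the highest Gli2 (4.44 CPM) and the lowest Gli3 (0.0728 CPM), with Gli1 at 0.728 CPM. Replicate 2 had the lowest Gli2 (0.999 CPM) together with the highest Gli1 (1.64 CPM) and the highest Mir483 (54.3 CPM). The highest Smo was in replicates 3 and 6, where Gli2 was at 2.40 and 1.94 CPM. With 6 livers and few counts these orders are given as they stand and were not tested.

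Members were compared with each other only per length, as CPM per kb of exon. In controls the order was Ptch1 (3.002 ± 0.615), Smo (0.898 ± 0.0518), Sufu (0.720 ± 0.0314), Hhip (0.524 ± 0.191), Ihh (0.236 ± 0.1999), Gli3 (0.0519 ± 0.0235), Gli1 (0.0471 ± 0.0331) and Gli2 (0.0101 ± 0.0101). Ptch1, Smo and Sufu were separated by gaps between their ranges, whereas each later neighbour in the order overlapped the one before it. In iTgMir483 livers the order was Ptch1 (2.90 ± 0.620), Smo (2.14 ± 0.619), Sufu (0.897 ± 0.0998), Hhip (0.397 ± 0.0899), Gli2 (0.347 ± 0.180), Ihh (0.246 ± 0.159), Gli1 (0.164 ± 0.102) and Gli3 (0.0582 ± 0.0296). There the ranges of Ptch1 and Smo overlapped, Smo and Sufu stayed apart, as did Sufu and Hhip, and the last 5 members overlapped from each to the next. Gli2 moved from rank 8 in controls to rank 5. The same ranks resulted when the longest annotated transcript served as the length.

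For each member that passed the filter, the genes whose level followed it most closely were sought among genes with a mean of at least 1 CPM, after subtraction of each group's mean. Over 12 livers the nearest to Gli2 were Rfng (r = 0.949), Cyb5d2 (r = 0.932) and Mmp19 (r = 0.925). Gli2 had only 0 to 3 counts in each control library, so its values in those libraries are at the floor. Nearest to Smo were Mtif3 (r = 0.957), Cdc23 (r = 0.946) and Wdr89 (r = 0.942). Ptch1 was closest to Col4a3bp (r = 0.946), Eif2ak2 (r = 0.930) and Ints8 (r = 0.922). Sufu was closest to Akr1b10 (r = 0.919), and Hhip to Cpeb1 (r = 0.867). None of these was another Hedgehog gene of the lists used here, and between the 5 members themselves r ran from -0.562 for Gli2 with Sufu to 0.349 for Ptch1 with Smo. These coefficients were the highest among all genes searched and describe these 12 libraries, in which depth and tissue make-up are shared by every gene.

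The remainder of the pathway was covered by 88 further genes in 5 lists, of which 71 passed the filter. In edgeR's quasi-likelihood test 10 of these were higher and 1 was lower in iTgMir483 livers, 15.5% of those tested against 11.1% over all genes. Their median log2 fold change was 0.24, against 0.01 over all genes, and 53 of 71 lay above 0, against 6705 of 13205 over all genes. The lists, like the members, were chosen with earlier results of these libraries known. Nothing is therefore read from the shares and medians of the lists against those over all genes. The adjusted p-values of list genes below take no account of that choice. Without iTgMir483 replicate 3 the number changed dropped from 11 to 6 (Kif7, Evc, Evc2, Ift57, Spp1 and Prom1). The call was kept in all 12 fits that left out 1 library for Evc, Evc2, Ift57, Spp1 and Prom1.

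Among genes for ligands and their release, 3 of 8 were tested and 1 was higher. This was Scube1, which codes for a secreted protein of the Scube family, some members of which help ligand to leave the producing cell. It had 0.559 ± 0.240 CPM in controls and 1.32 ± 0.587 CPM in iTgMir483 livers (log2 fold change 1.27, SE 0.36, adjusted p = 0.0235). It was above every control in 3 of 6 iTgMir483 livers, and it lost its call without control replicate 2 or 4 or iTgMir483 replicate 3 or 4 (adjusted p up to 0.0572). Its relative Scube3, named here after its values were seen, did not pass the filter. It had 0 to 8 counts in controls and 6 to 52 in iTgMir483 livers, with 0.203 ± 0.185 and 1.46 ± 1.08 CPM, and was above every control in 5 of 6 iTgMir483 livers. The fit without a filter called Scube3 higher (log2 fold change 2.77, SE 0.55), as did 10 of the 19 alternative fits in all. Of the receptors and co-receptors, 4 of 7 were tested and 0 met the thresholds. The co-receptor genes Cdon and Gas1 had log2 fold changes of 0.31 (SE 0.18, adjusted p = 0.230) and -0.61 (SE 0.29, adjusted p = 0.152). The third co-receptor gene, Boc, was not tested and had 0.482 ± 0.131 CPM in controls and 0.620 ± 0.283 CPM in iTgMir483 livers.

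In the list of signal relay and Gli processing 24 of 25 genes were tested, 3 were higher and 0 lower, with a median log2 fold change of 0.02. Evc and Evc2, whose proteins form a complex at the base of the cilium that binds Smoothened and passes its signal on, rose together. Evc spanned 2.29 to 5.96 CPM in control livers, with a median of 3.27, and 6.77 to 13.6 CPM in iTgMir483 livers, with a median of 11.1. Evc2 spanned 1.39 to 2.76 CPM in control livers, with a median of 2.10, and 4.39 to 8.70 CPM in iTgMir483 livers, with a median of 5.70. All iTgMir483 livers were above all controls for both genes, as for Smo. Their log2 fold changes were 1.56 (SE 0.22, adjusted p = 0.000626) and 1.54 (SE 0.21, adjusted p = 0.000476).

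Evc (chromosome 5, 37289098 to 37336894, minus strand) and Evc2 (37338499 to 37425055, plus strand) are neighbours transcribed away from each other, with 1604 bases between them. Evc is also the only changed gene of the 5 lists whose 3′ UTR holds a match to a miR-483-3p seed. Whether the microRNA acts on this site was not tested. The site (chromosome 5, 37299331 to 37299337, minus strand) is shown with its flanks, the match in capitals.
Evc 3′ UTR: accatcgtgtctAGGAGTGacgttt
Over the lists, 8 of 87 genes with an annotated 3′ UTR held a match to the 3p arm (9.2%, against 10.6% of all genes) and 2 to the 5p arm (2.3%, against 2.66%).

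Kif7, a kinesin that sets the tip of the cilium at which Gli proteins are processed, was the remaining gene of this list to pass. It had 0.929 ± 0.123 CPM in controls and 1.49 ± 0.335 CPM in iTgMir483 livers (log2 fold change 0.69, SE 0.21, adjusted p = 0.0320), and the groups did not overlap. It lost the call in 6 of the 12 fits that left out 1 library, with an adjusted p of up to 0.0856. These were the fits without control replicate 2, 3, 4 or 6 or iTgMir483 replicate 4 or 6. Kif7 was also not called with DESeq2, without a filter on low counts or with the replicate block, and kept its call in 10 of the 19 alternative fits. An antisense gene, 9330171B17Rik, covers 19.1% of its exon bases, so its reads are uncertain.

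For the primary cilium 28 of 30 genes were tested, 3 were higher and 0 lower, so that 10.7% were changed against 11.1% over all genes. Of the 28, 25 had a log2 fold change above 0, with a median of 0.21. Ift57 and Ift122 belong to the particles that carry cargo along the cilium. Ift57 rose from 0.725 ± 0.287 to 1.54 ± 0.235 CPM (log2 fold change 1.05, SE 0.26, adjusted p = 0.0123) with no overlap between groups. Ift122 rose by 0.67 on the log2 scale (SE 0.19, adjusted p = 0.0263). Cc2d2a, a component of the barrier at the base of the cilium, rose by 0.65 (SE 0.20, adjusted p = 0.0336). Each of these last calls depended on single libraries. Ift122 lost its call without control replicate 3, 5 or 6 or iTgMir483 replicate 3 or 6 (adjusted p up to 0.0614). It was also not called without a filter on low counts or with the replicate block. Cc2d2a lost its call without control replicate 1, 4, 5 or 6 or iTgMir483 replicate 2 or 3 (adjusted p up to 0.0812).

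Among genes known to respond to Gli factors 12 of 18 were tested, 3 were higher and 1 was lower. Spp1, which codes for the secreted protein osteopontin, rose from 25.6 ± 7.62 to 63.6 ± 11.7 CPM (log2 fold change 1.31, SE 0.18, adjusted p = 0.000517). Prom1, a surface protein of progenitor and bile duct cells, rose from 1.34 ± 0.245 to 3.50 ± 1.66 CPM (log2 fold change 1.37, SE 0.28, adjusted p = 0.00446). Both were higher in every iTgMir483 liver than in any control. Spp1 shares 18.8% of its exon bases with Gm42793 on the same strand.

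Ccnd1, the gene of cyclin D1, spanned 18.6 to 57.0 CPM in control livers and 24.3 to 196.6 CPM in iTgMir483 livers (log2 fold change 1.48, SE 0.41, adjusted p = 0.0223). It was above every control in 4 of 6 iTgMir483 livers and lost its call without iTgMir483 replicate 3 (adjusted p = 0.0545), as it did with limma-voom. It shares 23.4% of its exon bases with a gene on the opposite strand. Snai2, a transcription factor of mesenchymal cells, fell from 4.79 ± 2.03 to 2.62 ± 0.835 CPM (log2 fold change -0.86, SE 0.27, adjusted p = 0.0398). Snai2 lost its call without control replicate 4 or 6 or any iTgMir483 replicate other than 5, with an adjusted p of up to 0.0870. These target genes answer to other signals as well, and the direct targets Gli1, Ptch1 and Hhip were described above.

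**Figure D3:**
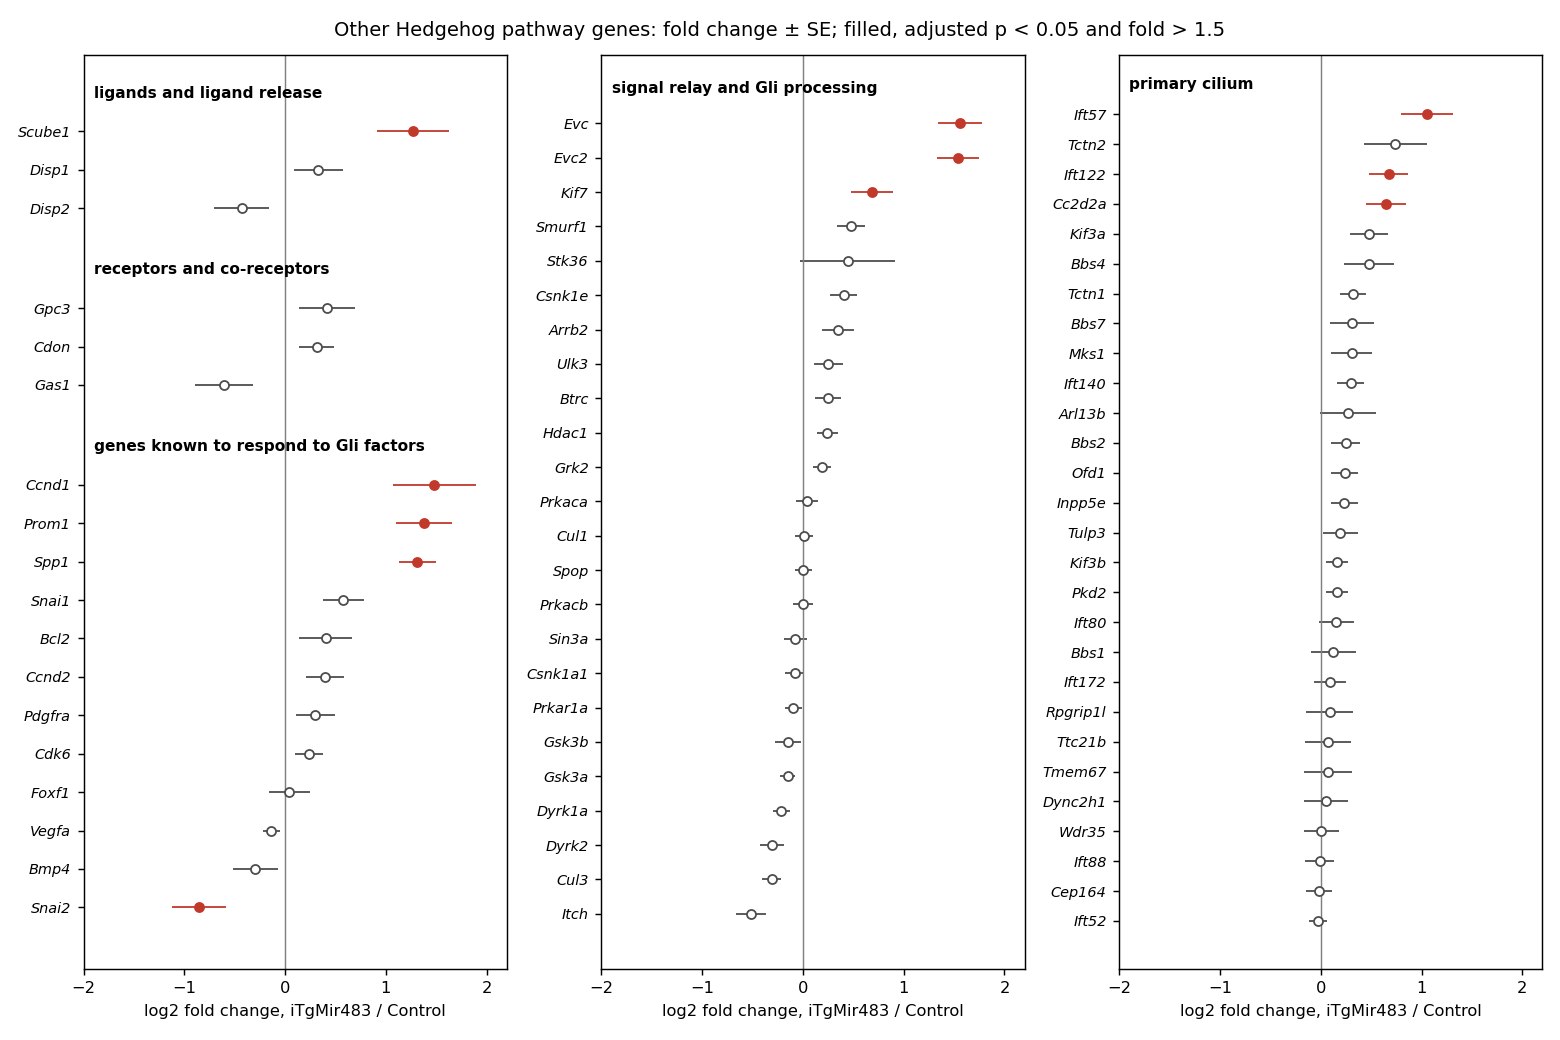
Log2 fold change ± SE (iTgMir483 over control, n = 6 livers each) of tested genes of the 5 lists; filled points passed both thresholds in edgeR's quasi-likelihood test. The 10 filled points to the right of 0 include Evc (1.56) and Evc2 (1.54), and Snai2 (-0.86) is the filled point to the left.

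Promoter windows of 300 bases, from 250 before to 50 after the RefSeq start of the gene (GRCm38.p6), were found for 7 of 8 members, all but Gli1. The windows of Ptch1 (chromosome 13, 63565686 to 63565985) and Gli3 (chromosome 13, 15463473 to 15463772) lie inside the gene spans given above. For these genes the bases around the outer start of that span were therefore not searched. The Gli binding motif GACCACCCA was present in 0 of 7 on either strand, and in 0.253% of 32851 mouse windows. Its core CCACCCA, which lies within that motif, was likewise present in 0 of 7, and in 9.3% of all windows. A GC box, GGGCGG, was present in 6 of 7 members, Smo being the exception, and in 35.7% of all windows.

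Markers of liver cell types were followed beside these results. The markers of hepatocytes were the most abundant by far in every library, as the tissue label says, and 0 of the lists had a marker at 0 counts throughout. For hepatic stellate cells 0 of 10 markers met both thresholds. Their summed level was 388.8 to 475.1 CPM in control livers and 427.4 to 540.2 CPM in iTgMir483 livers. Ecm1 contributed the most to this sum, with means of 220.4 CPM in controls and 192.9 CPM in iTgMir483 livers (log2 fold change -0.19, SE 0.11). Every other marker of the list had a log2 fold change above 0, and the median of the list was 0.32. The stellate cell markers Rgs5 (log2 fold change 0.54, adjusted p = 0.00308) and Hgf (0.57, adjusted p = 0.00556) missed only the fold threshold and were above every control in 6 of 6 iTgMir483 livers. Of markers of portal fibroblasts and myofibroblasts 3 of 9 tested were higher (Entpd2, Cd34 and Col15a1), with summed levels of 21.7 to 50.1 and 46.2 to 61.8 CPM. For bile duct cells 3 of 7 tested were higher (Krt7, Epcam and Tspan8), with summed levels of 23.2 to 27.2 and 23.1 to 44.2 CPM. The lowest bile duct sum of the iTgMir483 livers, 23.1 CPM, was in replicate 4, which also had the lowest Smo, and the highest sums, 43.9 and 44.2 CPM, were in replicates 3 and 6, which had the highest Smo. The part of these markers in the Smo result was not tested.

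Of the markers of Kupffer cells and macrophages 6 of 8 were higher, and their summed level was 152.1 to 237.2 CPM in control livers and 241.1 to 591.4 CPM in iTgMir483 livers, without overlap. Hepatocyte markers summed to 121200 to 172000 CPM in control livers and to 61730 to 130700 CPM in iTgMir483 livers, and Cps1 and Ass1 were lower while 6 of 8 did not pass. For sinusoidal endothelium 0 of 8 met both thresholds, for mesothelium 0 of 3 tested, and for lymphocytes 1 of 3 tested, Cd4, was higher. Some markers of macrophages, portal fibroblasts, bile duct cells, hepatocytes and lymphocytes thus met both thresholds in the same libraries in which Gli2, Smo, Evc and Evc2 were higher. The stellate cell markers Rgs5 and Hgf and the endothelial marker Pecam1 passed on adjusted p alone. In edgeR's quasi-likelihood test Pecam1 had a log2 fold change of 0.42 (adjusted p = 0.0239). Of these types, the summed level of macrophage markers did not overlap between groups and the other sums did. The part of these markers in those results was not tested.

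**Figure D4:**
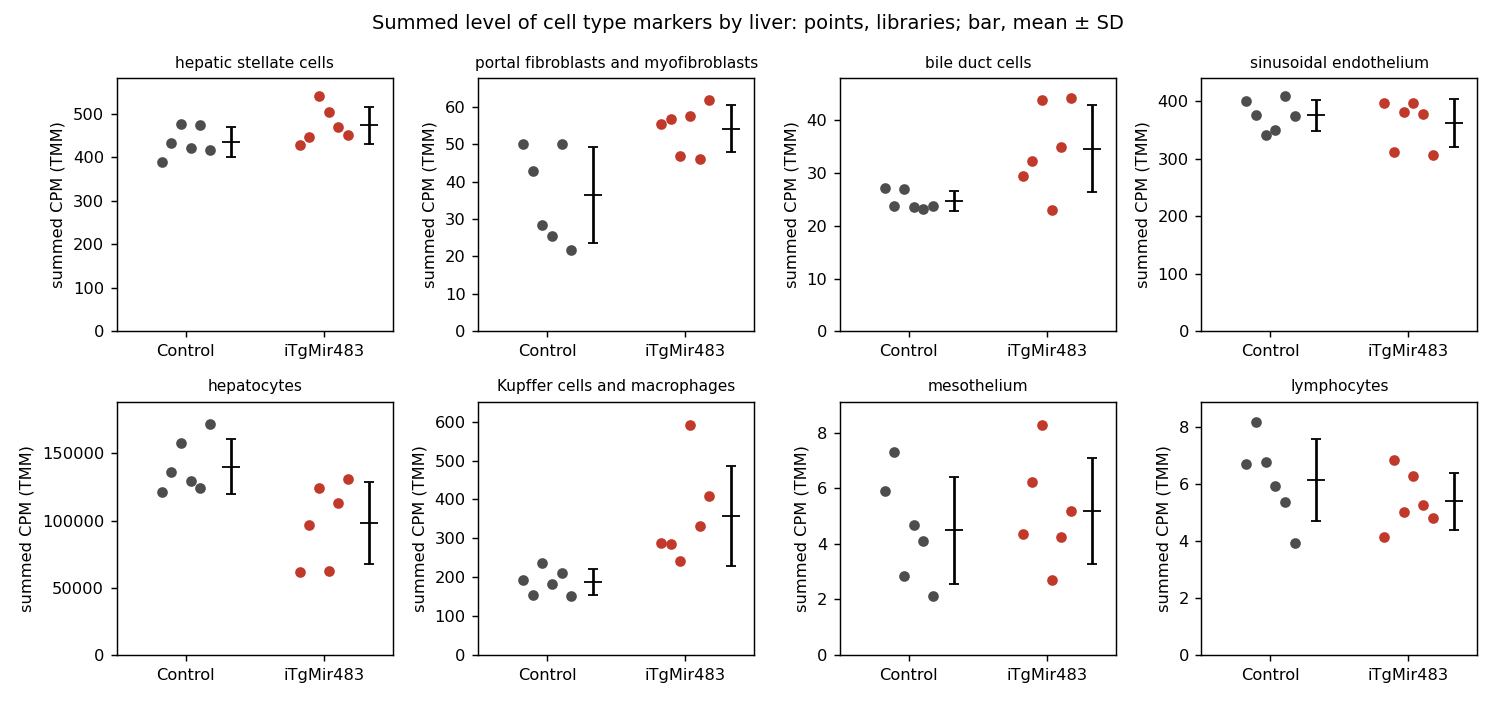
Summed CPM (linear axes from 0) of the markers of 8 cell types in each control and iTgMir483 liver; points are livers and bars mean ± SD. The groups do not overlap for Kupffer cells and macrophages (at most 237.2 CPM in controls, at least 241.1 CPM in iTgMir483 livers) and overlap for stellate cells. Ecm1 is the largest contributor to the stellate cell sum.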

How the data were processed

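The authors isolated total liver RNA, prepared stranded poly(A) libraries, sequenced paired ends, mapped them with STAR to GRCm38 and obtained gene counts. The deposited values are these raw counts per gene, without normalization; the strand column used is not given in the sources used here. Groups and replicate numbers were taken from sample titles. All libraries carry the label of the same sequencing pool, so no batch term was available.

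Symbols, exons and UTRs came from GENCODE M21 (GRCm38); 55141 of the identifiers had a symbol and 260 had none. Counts were filtered with filterByExpr, normalized with TMM (trimmed mean of M-values) and compared with edgeR 4.0.16 (limma 3.58.1, R 4.3.3) by the quasi-likelihood F-test without covariates. The call of a changed gene required an adjusted p (Benjamini-Hochberg, over all 13205 genes tested) under 0.05 and a fold over 1.5. SE was obtained as the absolute log2 fold change over the root of the F statistic. Pairs of libraries within a group differed beyond sampling noise (smallest chi-square per gene 15.7). Reads carry no molecular identifiers, so intervals and the floor of 3 counts cover counting error only. The scripts were tested on simulated data.

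The members, the pathway lists and the markers were chosen with earlier results of these data known. Named were the members, every list gene that was called, and Shh, Dhh, Boc, Cdon, Gas1 and Kif7 whatever their value; a further gene fixed to be named whatever its value is not reported here, although it was tested and remains in the counts of genes tested. Alternatives were RLE size factors, other filters, DESeq2 1.42.0, limma-voom, the replicate number as a block, leaving out libraries, no fold threshold, shorter seed matches and another transcript length.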

Additional observations from a re-analysis of the deposited data

Results flagged for a closer look

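In 69 sets of 6 libraries, the gap between an extreme library and its nearest neighbour was compared with the whole range of the set by Dixon's 95% critical value, which chance exceeds in about 3.5 of 69 sets. It was exceeded in 2. Ihh was at 1.95 CPM in control replicate 1, whereas the other controls had 0.274 to 0.558 CPM (ratio 0.830). The total count of control replicate 4 was 30431286, whereas the other controls had 12244123 to 17834937 (ratio 0.693).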

How the results depend on the processing

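As a description of members chosen on these data, Gli2 and Smo met both thresholds under the 19 alternative fits with 1 exception. When at least 10 counts were required in every library, Gli2 was not tested and 1 member in place of 2 was counted. The refits reuse the libraries that guided the choice of members, so nothing is read from this stability. When 1 library was left out, the number of members meeting the thresholds was 2 to 2, the number of changed genes 1190 (without control replicate 4) to 1653 (without iTgMir483 replicate 1), and the number of changed pathway genes 6 (without iTgMir483 replicate 3) to 12. Without a fold threshold 2457 genes were changed in place of 1470, and 60.6% of them in place of 75.5% were higher. Over all fits the log2 fold change ran from 4.71 to 5.48 for Gli2, from 1.16 to 1.38 for Smo, from 0.27 to 0.37 for Sufu, from -0.53 to -0.20 for Hhip, from -0.15 to 0.02 for Ptch1, from 1.39 to 2.02 for Gli1, from -0.08 to 0.41 for Gli3 and from -0.29 to 0.68 for Ihh. RLE size factors moved the median of all genes to -0.01 and kept the same 2 members and 11 pathway genes. Levels per kb of Ptch1, Smo and Sufu were higher with the longest transcript as length, and their ranks stayed.

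Livers with the same replicate number deviated together with r = 0.440 for number 1, 0.167 for number 5 and 0.034 to 0.053 for the others. The numbers were therefore not taken to pair mice in the main fit. What the replicate 1 livers have in common was not tested. No fit used litters, so the p-values take no account of any litter that livers share. With the replicate block 1530 genes, 9 pathway genes (without Kif7 and Ift122) and the same 2 members were changed. Depth limits what can be said of Gli1, Gli2, Gli3, Ihh, Shh and Dhh, whose counts per library were mostly below 30, and a difference not called in them is not shown to be absent.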
